A study of Mus musculus with 2 samples.

Results

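Keratin genes of the basal layer, the outer root sheath, the companion layer and the upper hair follicle were compared between the bulge and the hairshaft of mouse hair follicles. The genes were Krt5, Krt14, Krt15, Krt19, Krt6a, Krt6b, Krt16, Krt17, Krt75 and Krt79, which are 10 of the 18194 genes named on the array. They were chosen by gene symbol from where these keratins are known to be made, and every probe set carrying 1 of their symbols was taken. There were 15 probe sets with a single symbol, and 1 further probe set was annotated to both Krt17 and Krt14. Both structures were laser-dissected from eosin-stained frozen skin of C57Bl6 mice aged 21 days, and 1 array was hybridised for each. No group carried a treatment or a transgene, and the labels used here give no sex, body site or number of animals. Values are log2 GCRMA probe-set values, in which background is corrected from probe sequence and the arrays are normalized to each other. With 1 array a structure there is no replicate spread, so no test was made, and the folds below describe these 2 arrays.

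Keratins are the intermediate filament proteins of epithelial cells. A filament is built from pairs of a type I and a type II keratin, so the genes are expressed in partner sets that mark a cell layer. Basal keratinocytes and the outer root sheath make Krt5 with Krt14, the bulge is known for Krt15 and Krt19, the suprabasal outer root sheath and the companion layer make Krt6a, Krt6b, Krt16 and Krt17, the companion layer makes Krt75, and the upper follicle with its sebaceous duct makes Krt79.

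The arrays were first set against markers of the labelled structures. All 8 measured bulge stem cell markers were at least 2-fold higher on the bulge array, beside 11.4% of all genes above the floor. Their differences ran from 1.03 to 4.56 log2 units, so some only just passed the limit. Sox9, 1 of the 8, was level at 0 with its dimmest probe set. Nfatc1 (1.13) and Tcf7l1 (1.03) were closest to the limit, and the count of markers was not recomputed under other processing settings. Of the 8, 4 are also in gene lists described below. Krt15 and Krt19, named above as bulge keratins, are not among the 8. Krt15 was 1.24-fold higher in the bulge, and Krt19 was below the floor on both arrays. The lists were chosen with earlier results of these data known, so the marker count is no independent check of the bulge label. Of 6 hair shaft markers, 0 failed to exceed the background floor in the bulge, against 4 in the hairshaft (Krt31, Krt33a, Krt35 and Krt86). The array labelled hairshaft thus lacked signal above the floor for these 4 keratins. Krt35 read 2.70 in the bulge, just above the floor of 2.68. Of all 12 measured hair shaft keratins, 6 were at or below the floor in the hairshaft, against 2 in the bulge. The markers of skeletal muscle ranged between 13.66 and 15.15 on the bulge array and between 2.35 and 4.97 on the hairshaft array. Summed on the linear scale and returned to log2, the 8 muscle markers gave 17.29 in the bulge against 6.31 in the hairshaft, and the 4 measured fat cell markers 15.74 in the bulge against 6.49 in the hairshaft. The 4 inner root sheath markers gave 10.96 in the bulge against 5.64 in the hairshaft, the 5 sebaceous gland markers 15.23 in the bulge against 11.92 in the hairshaft, the 5 suprabasal epidermis markers 16.59 in the bulge against 16.71 in the hairshaft, and the 5 fibroblast markers 15.04 in the bulge against 16.33 in the hairshaft. Such sums follow the brightest genes. The brightest sebaceous marker, Scd1, read 14.54 in the bulge against 11.72 in the hairshaft, the smallest difference of the 5 (2.82). The median difference of the 5 was 6.51 log2 units and the largest 7.54. The part of these other cell types in the keratin values was not tested. In such tissue pieces, fewer cells of a type and less RNA per cell cannot be told apart. With 1 array for each label, no result could be given without either array.

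Among the 10 keratins, Krt75 and Krt79 had the largest differences, both higher in the bulge, while Krt5 was close to equal. Their promoters are shown because they lie upstream of the genes with the largest and the smallest absolute differences among the keratins of this group that exceeded background. Sequences are from RefSeq (GRCm38.p6), from 250 bases before to 50 bases after the annotated start. The windows are chr15:101573855-101574154, chr15:101940275-101940574 and chr15:101712856-101713155, and each is printed 5′ to 3′ on the minus strand of the chromosome, along which the genes are transcribed. Capitals mark the motifs found.
Krt75: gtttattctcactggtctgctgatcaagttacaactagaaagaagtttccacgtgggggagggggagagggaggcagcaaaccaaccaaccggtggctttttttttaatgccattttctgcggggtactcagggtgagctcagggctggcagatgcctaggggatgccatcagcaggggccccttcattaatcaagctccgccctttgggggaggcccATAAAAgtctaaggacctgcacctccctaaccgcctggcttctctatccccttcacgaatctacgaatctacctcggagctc
Krt79: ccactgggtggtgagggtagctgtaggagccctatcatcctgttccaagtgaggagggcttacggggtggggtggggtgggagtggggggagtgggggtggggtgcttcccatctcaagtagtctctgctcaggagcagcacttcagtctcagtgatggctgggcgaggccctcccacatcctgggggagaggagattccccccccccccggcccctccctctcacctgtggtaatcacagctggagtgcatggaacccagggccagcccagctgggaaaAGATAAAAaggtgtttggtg
Krt5: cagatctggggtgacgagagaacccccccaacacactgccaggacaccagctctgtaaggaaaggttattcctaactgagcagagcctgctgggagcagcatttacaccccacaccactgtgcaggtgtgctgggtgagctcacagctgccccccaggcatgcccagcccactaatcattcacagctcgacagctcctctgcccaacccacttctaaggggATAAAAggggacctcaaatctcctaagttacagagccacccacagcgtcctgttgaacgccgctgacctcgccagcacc

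Promoters were available for 4 of the 10 keratins (Krt5, Krt14, Krt75 and Krt79). Both strands were searched for ATAAAA, the core of a TATA-like element, for AGATAA, a form of the GATA factor motif, and for GCCNNNGGC, the AP-2 motif. The TATA-like letters began 32 bases before the start in Krt75 and 29 bases before it in Krt5, both on the printed strand. In Krt79, ATAAAA began 32 bases after the annotated start and overlapped an AGATAA that began at 30 bases. The Krt14 window held none of the 3 motifs, and GCCNNNGGC was in none of the 4 windows. Of the 32851 promoters in the same table, 18.5% held ATAAAA, 11.2% AGATAA and 16.6% GCCNNNGGC. These are matches of letters and do not show binding.

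**Figure D1:**
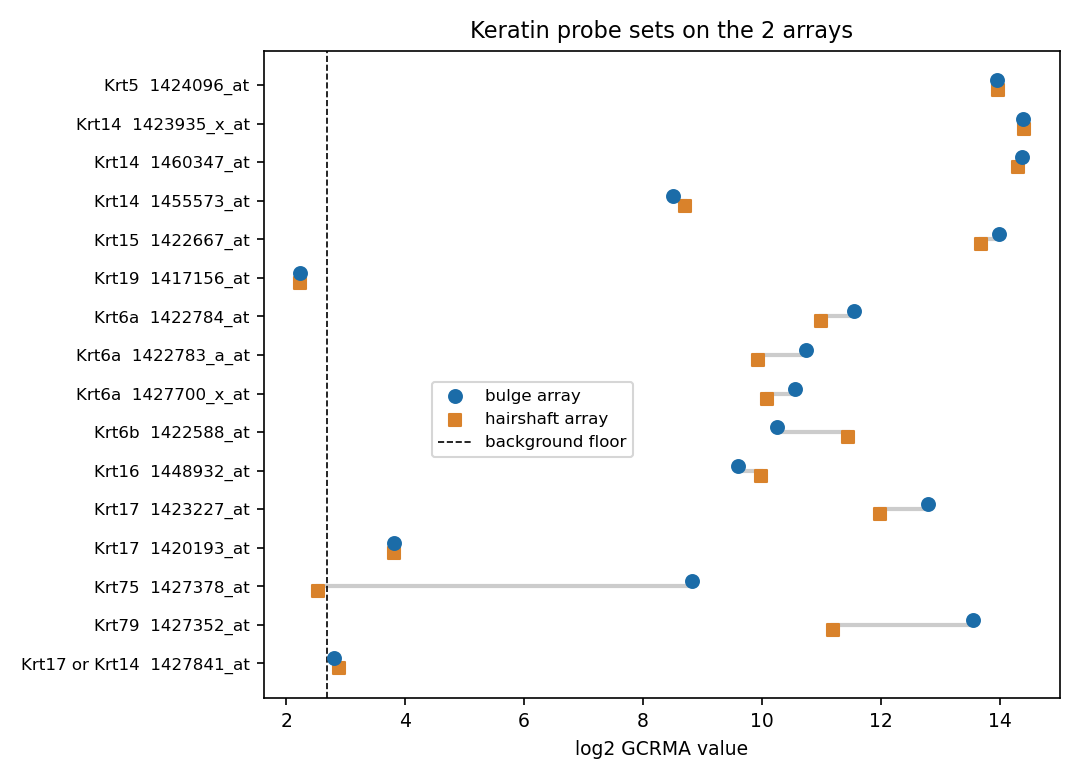
Log2 GCRMA value of each keratin probe set (rows) on the bulge array (circles) and the hairshaft array (squares), 1 array each, with the background floor of 2.68 as a dashed line. Krt75 shows the longest distance, from 8.82 on the bulge array to a hairshaft value left of the floor, and Krt6b is the one probe set with a visibly higher hairshaft value by over 1 log2 unit.

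Of the 10 keratins, 9 were above the background floor on at least 1 array, where the floor was the 95th percentile of the values of 80 odorant and vomeronasal receptor probe sets (2.68 on both arrays). At a limit of 2-fold, 2 of the 9 were higher in the bulge (Krt75 and Krt79), 1 was higher in the hairshaft (Krt6b) and 6 were less than 2-fold apart. Over all 13329 genes above the floor, 11.4% were higher by 2-fold or more on the bulge array and 4.91% higher by 2-fold or more on the hairshaft array. Together these are 16.4%. At 4-fold, 2 of the 9 were higher in the bulge, against 5.42% of all genes, and 0 in the hairshaft, against 0.63%. A single gene makes up 11.1% of 9, so the keratins' counts are too small to be read as a departure from those shares. The median difference of the 9, bulge minus hairshaft, was 0.31 on the log2 scale, beside 0 for all genes above the floor. Genes within 0.5 log2 units of each keratin's mean had medians between -0.18 (for Krt5) and 0.07 (for Krt75), below 0 for all but Krt75. The 3 keratins that passed the limit were all of type II, out of 5 type II keratins above the floor, and none of 4 type I keratins did.

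The basal pair was nearly level between the arrays. Krt5, the type II keratin of basal cells, read 13.96 on the bulge array against 13.96 on the hairshaft array, a difference of -0.0029. Krt14, its type I partner, had 3 probe sets. The brightest read 14.38 on the bulge array against 14.40 on the hairshaft array, the second 14.38 in the bulge against 14.31 in the hairshaft, and the third 8.51 in the bulge against 8.71 in the hairshaft. Krt14 therefore has no settled direction, since its probe sets differed by -0.02, 0.07 and -0.19. The differences of Krt5 and Krt14 were 0.01 log2 units apart. Both turned slightly positive with the loess trend removed (0.12 for Krt5 and 0.11 for Krt14) and with quantile normalization (0.09 for Krt5 and 0.07 for Krt14). The highest value on the arrays was 15.33 in the bulge against 15.36 in the hairshaft, and compression of such bright signals was not tested.

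Of the bulge-associated type I keratins, Krt15 was less than 2-fold apart between the arrays, and Krt19 did not exceed the floor on either. Krt15 read 13.99 on the bulge array against 13.68 on the hairshaft array, 1.24-fold higher in the bulge, and it kept that direction under all 11 alternatives, with differences of 0.31 to 0.44. Of 71 other genes within 0.5 log2 units of its mean, 32 (45.1%) had a larger absolute difference. Krt19 was measured by 1 probe set, which read 2.23 in the bulge against 2.23 in the hairshaft, below the floor on both arrays and identical to the last deposited digit. This probe set gives a bound only, and no fold is given for Krt19.

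The keratins of the suprabasal outer root sheath and companion layer differed in direction. Krt6a, a type II keratin also induced in activated keratinocytes, read 11.55 on the bulge array against 10.99 on the hairshaft array with its brightest probe set, 1.48-fold higher in the bulge. Its other probe sets read 10.74 on the bulge array against 9.94 on the hairshaft array, and 10.55 in the bulge against 10.08 in the hairshaft. All 3 Krt6a probe sets were thus higher in the bulge, by 0.47 to 0.80 log2 units. Krt6b, its neighbouring and closely related gene, read 10.25 on the bulge array against 11.45 on the hairshaft array, a difference of -1.20, so that it was 2.29-fold higher in the hairshaft. Among all genes above the floor, 427 had a larger difference towards the hairshaft. Of 666 genes as bright as Krt6b, 47 (7.06%) had a larger absolute difference. The 2 genes therefore lay on opposite sides of 0, 1.76 log2 units apart with the brightest Krt6a probe set and 1.67 to 2.00 apart over all 3. These paralogs are known to be close in sequence. The brightest Krt6a probe set and the Krt6b probe set both carry the plain suffix, so the opposite directions (0.56 for Krt6a and -1.20 for Krt6b) were the same with plain probe sets only. One of the other Krt6a probe sets carries the _x_at suffix, which Affymetrix gives where some probes also match other transcripts, and signal shared between the genes was not tested.

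Of their type I partners, Krt17 was higher in the bulge with its brighter probe set and Krt16 was higher in the hairshaft, each by less than 2-fold. Krt17 read 12.79 on the bulge array against 11.98 on the hairshaft array, 1.75-fold higher in the bulge, while Krt16 read 9.59 on the bulge array against 9.98 on the hairshaft array, 1.31-fold higher in the hairshaft. The Krt17 and Krt16 differences were 1.20 log2 units apart. Both were under 2-fold from level, and 14.6% of 213 genes as bright as Krt17 and 43.4% of 1167 genes as bright as Krt16 had larger absolute differences. A second Krt17 probe set read 3.80 in the bulge against 3.80 in the hairshaft, again identical. The probe set annotated to both Krt17 and Krt14 read 2.81 in the bulge against 2.88 in the hairshaft, just above the floor, and was assigned to neither gene.

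Krt75, the type II keratin of the companion layer between the outer and the inner root sheath, had the largest difference of the 10. Its 1 probe set read 8.82 in the bulge against 2.53 in the hairshaft, where it did not exceed the floor. Set against the floor, Krt75 was at least 70.5-fold brighter on the bulge array (6.14 log2 units), and 87 of 13329 genes had a larger one in that direction. Krt75 was higher by 2-fold or more on the bulge array under every alternative run, with log2 differences of 4.38 to 6.29. The floor sets much of its size: it was 4.60 with the floor raised to the receptors' 99th percentile. Skeletal muscle, fat, inner root sheath and sebaceous gland markers were higher on the same array, with the sums given above.

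Krt79, a type II keratin of the upper follicle and sebaceous duct, was well above the floor on both arrays. It read 13.54 on the bulge array against 11.19 on the hairshaft array, 5.12-fold higher in the bulge. It was measured by 1 probe set and lay between 2.35 and 2.48 log2 units under the 11 alternatives. Of 216 genes as bright, 1 had a larger absolute difference, and 591 genes of all 13329 had a larger difference towards the bulge. Sebaceous gland markers were higher on the same array, and their part in the Krt79 value was not tested.

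**Figure D2:**
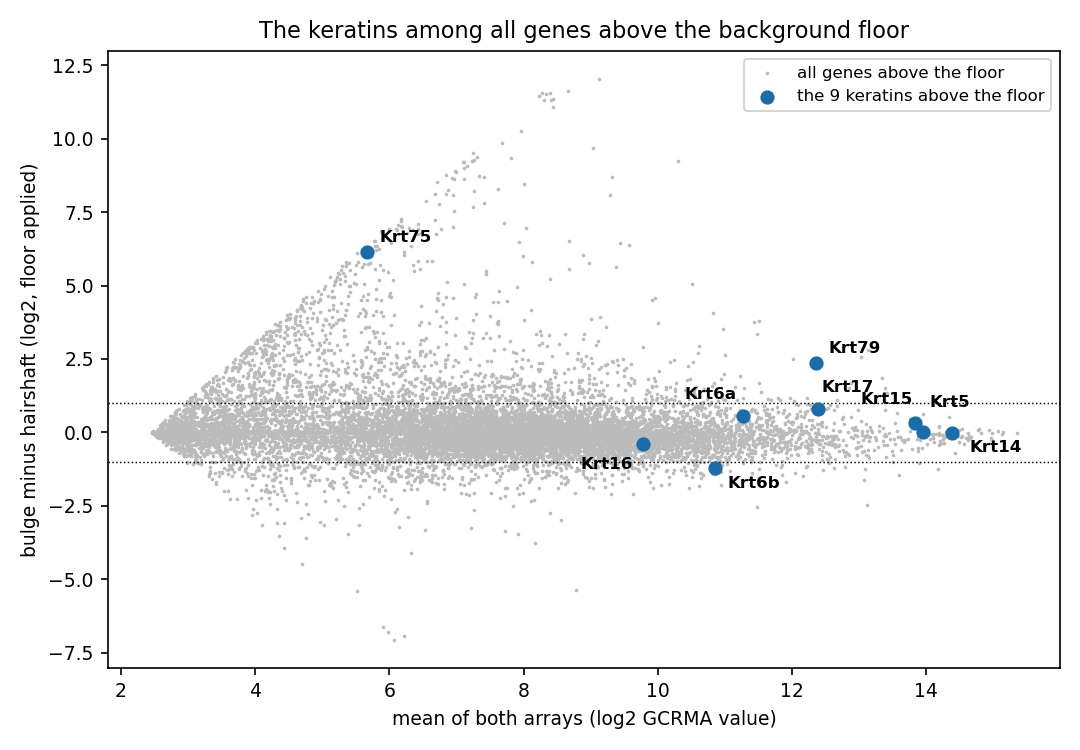
Difference between the bulge and the hairshaft array (log2, with the background floor applied) against the mean of both arrays for the 13329 genes above the floor (grey), with the 9 keratins above it in blue and dotted lines at 2-fold. Krt79 at 2.36 lies above nearly all genes of its brightness, Krt75 lies on the upper edge set by the floor, and Krt5, Krt14 and Krt15 sit at the bright end close to 0.

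For the 3 keratins past the limit, the genes closest to them were found by the distance between their values on both arrays. This likeness rests on 2 values a gene, and values of different probe sets are not comparable as levels, so it describes the arrays and says nothing of shared biology. Nearest to Krt75 were Itgb1bp2, an integrin partner of striated muscle, with 8.85 in the bulge, Lmcd1, a LIM domain protein, with 8.89 in the bulge, and Acaa1b, a peroxisomal thiolase, with 8.85 in the bulge. None of the 3 exceeded the floor in the hairshaft, so their order has no meaning. Nearest to Krt79 was Elovl6, a fatty acid elongase, with 13.26 on the bulge array against 10.78 on the hairshaft array, at a distance of 0.49. The Elovl6 difference of 2.48 became 1.84 with the mean of its probe sets and 0.92 with the dimmest. Postn, a matrix protein, and Ldha, a lactate dehydrogenase subunit, followed at distances of 0.86 and 0.87. Nearest to Krt6b were the chaperone Dnajb1, with 10.22 on the bulge array against 11.42 on the hairshaft array, the zinc transporter Slc39a6 and the adhesion protein Mpzl2, at distances of 0.04, 0.05 and 0.05.

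The keratin genes lie in 2 clusters, type I on mouse chromosome 11 and type II on chromosome 15. In RefSeq order, Krt75, Krt6b, Krt6a and Krt5 are consecutive, and their differences were at least 6.14 for Krt75, then -1.20, 0.56 and -0.0029, so neighbouring genes took different directions. The next gene after Krt5 is Krt71, an inner root sheath keratin, with 7.70 on the bulge array against 3.50 on the hairshaft array. Krt79 lies between Krt4, with 4.15 on the bulge array against 3.97 on the hairshaft array, and Krt78, with 10.01 on the bulge array against 11.17 on the hairshaft array, so that Krt79 and Krt78 were at least 2-fold apart in opposite directions. In the type I cluster Krt14, Krt16 and Krt17 are consecutive, with differences of -0.02, -0.39 and 0.81. Krt42, which follows Krt17, read 6.73 on both arrays with its brightest probe set. Its difference was -0.27 with the mean of its probe sets and -0.22 with the dimmest. Krt15 lies between Krt13, which was below the floor on both arrays, and Krt19. Of 20 type II genes above the floor, 6 were higher by 2-fold or more on the bulge array and 2 in the hairshaft (Krt6b and Krt78). Of 19 type I genes above the floor, 8 were higher by 2-fold or more on the bulge array and 0 in the hairshaft, none of the 8 being among the basal, outer sheath and companion keratins. Shares past the same limit over all genes were 11.4% for the bulge and 4.91% for the hairshaft.

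**Figure D3:**
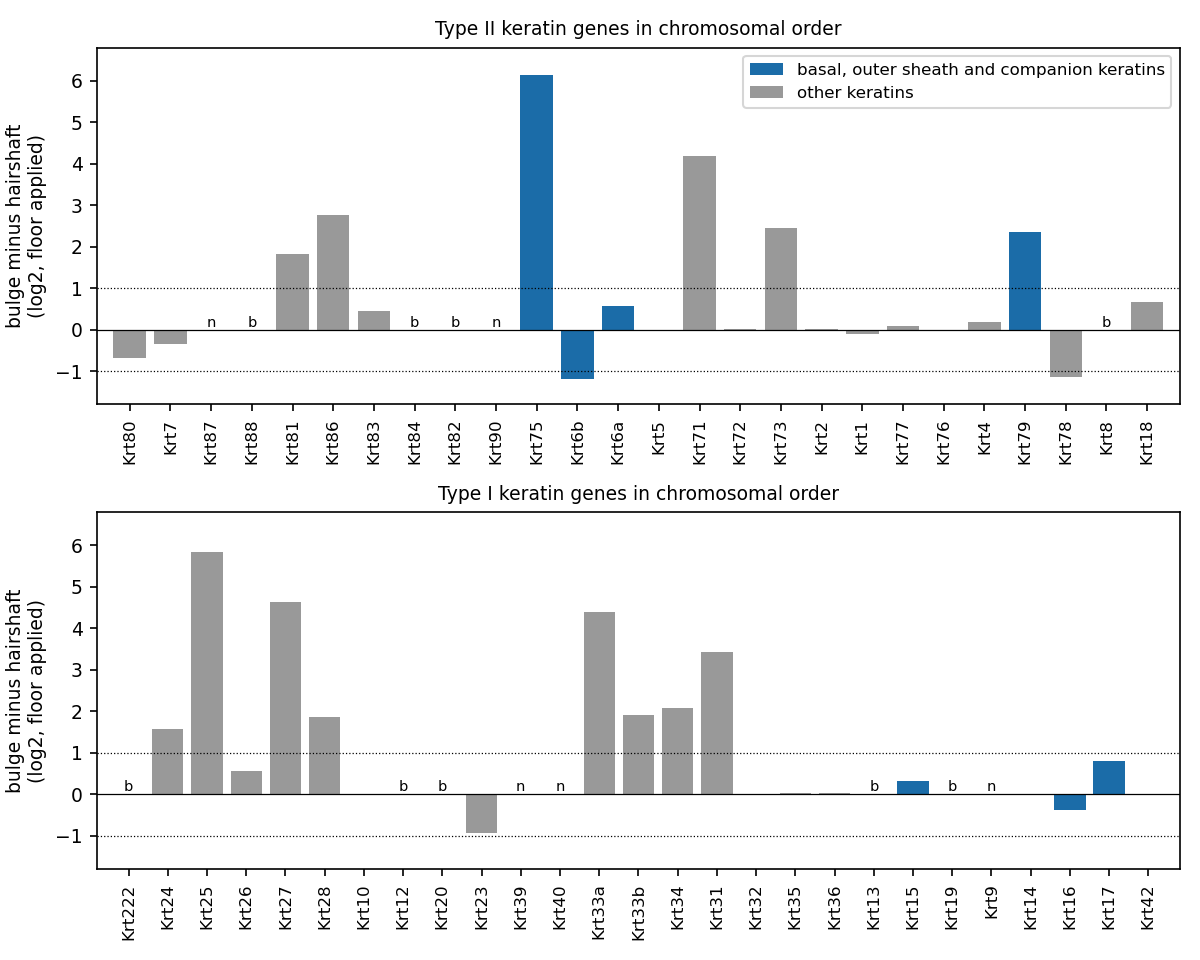
Difference between the bulge and the hairshaft array (log2, floor applied) for each type II (top) and type I (bottom) keratin gene in RefSeq order, with the 10 keratins described here in blue, other keratins in grey and dotted lines at 2-fold. The letter b marks a gene that neither array showed above the floor, including Krt19, and n a gene with no named probe set; genes with no bar and no letter, such as Krt5 and Krt14, were within 0.05 of 0.

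Against other keratins, the basal, outer sheath and companion genes had a smaller median difference than the hair keratins. The counts below stand beside 11.4% of all genes higher in the bulge and 4.91% higher in the hairshaft. Among the 10 detected hair shaft keratins, 6 were higher by 2-fold or more on the bulge array and 0 in the hairshaft, with a median of 1.87. Krt33a, Krt31 and Krt86 had the largest differences, at least 4.40, 3.44 and 2.75 log2 units, or 2.86, 1.90 and 1.22 with the 99th percentile floor. Of 7 inner root sheath keratins, 5 were higher by 2-fold or more on the bulge array, with a median of 2.46, led by Krt25 (9.48 in the bulge against 3.63 in the hairshaft), Krt27 and Krt71. Of 12 suprabasal and simple epithelial keratins, 1 (Krt24, a difference of 1.56) was higher in the bulge, 1 (Krt78) in the hairshaft, and the median was -0.01; Krt23 had -0.95. Krt25 differed by 5.85 and Krt75, the keratin of the layer next to the inner root sheath, by at least 6.14, and their order is not settled: Krt25 had 5.27 and Krt75 4.60 with the 99th percentile floor, and Krt25 had 4.68 and Krt75 4.38 with 16 added to each linear value.

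Genes that work with these keratins were also described. The keratin anchoring genes, which encode hemidesmosome and desmosome parts and the plakin linkers, differed by less than 2-fold for 14 of 15 members, and their median was -0.31. The exception was Itga6, an integrin chain of hemidesmosomes, with 11.21 on the bulge array against 12.31 on the hairshaft array, and its difference of -1.10 became -0.68 with the mean of its probe sets and -0.25 with the dimmest. Lama3 had -0.59 and Evpl -0.52, while Lama3 had -0.30 with the mean of its probe sets and 0 with plain probe sets or the dimmest. Of 18 regulators of basal and sheath keratin genes, 6 were higher by 2-fold or more on the bulge array, 1 in the hairshaft (Sp1, a general transcription factor, -1.47) while 11 differed by less, and the median was 0.03. Of these 18, 5 are also in other lists described here, so the lists are not separate sets of genes. Trp63, the master regulator of the basal layer, read 11.57 on the bulge array against 11.86 on the hairshaft array. The Trp63 difference of -0.28 became 0.31 with the dimmest of its probe sets, so its direction is not settled. Lhx2 and Sox9, transcription factors of the outer root sheath and bulge, were higher in the bulge by 4.56 and 3.76 log2 units, while Sox9 had 2.11 with the mean of its probe sets and 0 with the dimmest. Sp1 had -0.65 with the mean of its probe sets and -0.67 with the dimmest, both under 2-fold.

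Genes of the layers that make Krt79 and Krt6a were compared in the same way, beside the shares over all genes of 11.4% for the bulge and 4.91% for the hairshaft. Of 9 upper follicle genes, 6 were higher by 2-fold or more on the bulge array and 0 in the hairshaft, with a median of 1.20. Gata6, a transcription factor of the sebaceous duct, read 6.45 on the bulge array against 3.47 on the hairshaft array (1.54 in place of 2.99 log2 units with the mean of its probe sets, the dimmest of which exceeded the floor on neither array), the defensin Defb6 read 14.31 on the bulge array against 11.74 on the hairshaft array, and the protease Klk10 read 8.13 on the bulge array against 6.31 on the hairshaft array. Of 11 activated keratinocyte genes, 4 were higher by 2-fold or more on the bulge array, 1 in the hairshaft (Tnc, a matrix protein, whose -1.17 became -0.78 with its probe sets averaged and -0.38 with the dimmest), and the median was 0.41. Sprr2d, a cornified envelope precursor, was 9.30-fold higher in the bulge, and the calcium-binding alarmins S100a8 and S100a9 were higher there by 2.81 and 2.37 log2 units. Of 10 outer root sheath and companion layer genes, 3 were higher by 2-fold or more on the bulge array (Lhx2, Sox9 and Fzd7) and 1 in the hairshaft (Fgf22, a growth factor, -1.37), with a median of 0.14. Lhx2 and Sox9 are also among the regulators and the bulge stem cell markers. Fzd7, a Wnt receptor, read 8.58 on the bulge array against 5.70 on the hairshaft array, with a difference of 1.44 with the mean of its probe sets and 0.01 with the dimmest. Fgf22 had -0.77 with the mean of its probe sets and -0.03 with plain probe sets or the dimmest, all under 2-fold.

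**Figure D4:**
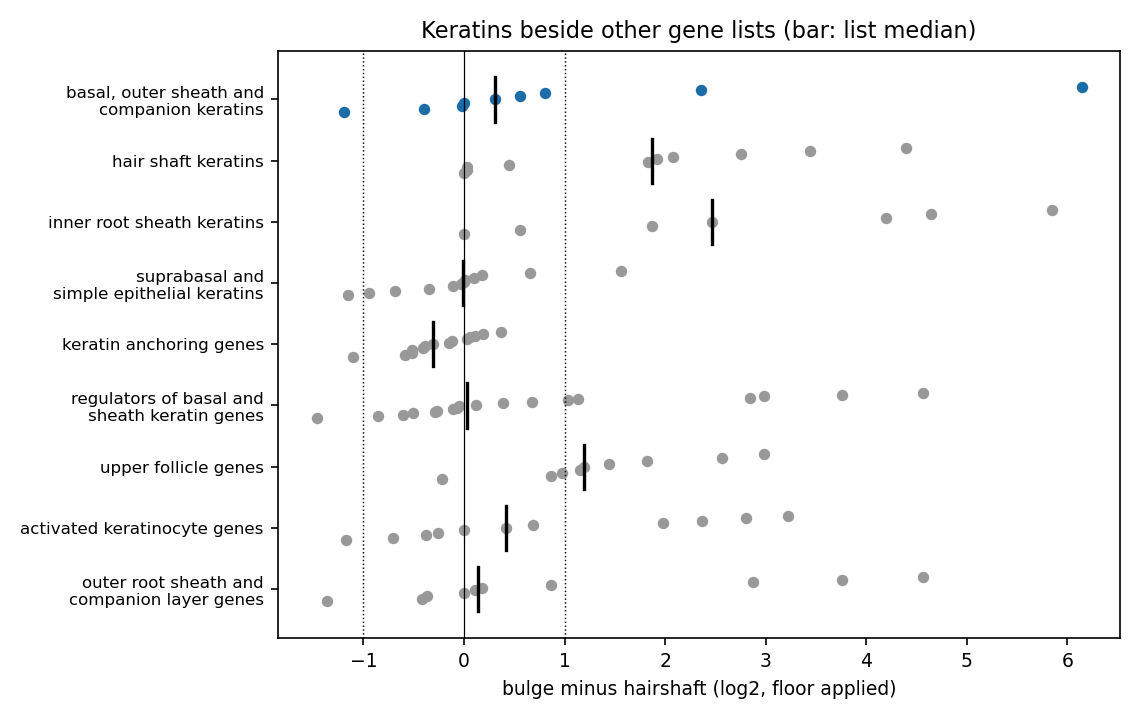
Difference between the bulge and the hairshaft array (log2, floor applied) for each gene above the floor in 9 gene lists, 1 point a gene, with the list median as a black bar and dotted lines at 2-fold. The 9 keratins described here (blue) run between -1.20 and a floor-dependent 6.14 around a median of 0.31, below the medians of the hair shaft keratins (1.87) and inner root sheath keratins (2.46).

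The differences of the keratins were recomputed under 11 alternatives. Krt75, Krt79 and Krt6b stayed past 2-fold in the same direction under each, and the other 6 stayed under 2-fold. Krt15, Krt6a and Krt16 kept their direction under each alternative, as did Krt17 with the exception of its dimmest probe set, which was level at 0. The directions of Krt5 and Krt14 depended on the scaling.

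**Figure D5:**
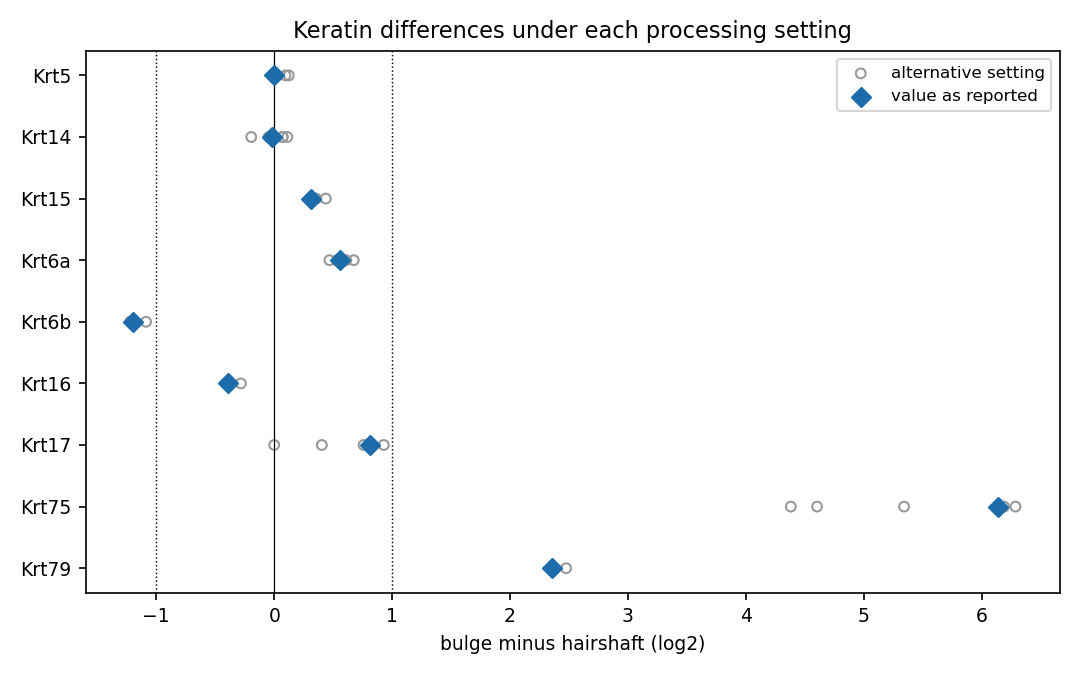
Difference between the bulge and the hairshaft array (log2) for each of the 9 keratins above the floor as reported (diamonds) and under each of 11 alternative settings (open circles), with dotted lines at 2-fold. Krt75 spreads from 4.38 to 6.29, Krt17 from 0 to 0.93, and the others by less than 0.4.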

How the data were processed

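Expression was measured on 2 arrays of 45101 probe sets, 1 for the bulge and 1 for the hairshaft, from 30 ng of amplified total RNA each, per the labels' protocols. The authors deposited log2 values per probe set, made with GCRMA, per the submitters' processing notes; its version and settings are not given here, and values between 2.23 and 15.36 showed the log2 scale. GCRMA's normalization gave the arrays nearly the same distribution (sorted columns at most 0.19 apart), so no further scaling was applied, and a global shift between structures would not be visible. An array has no sequencing depth, and the number of arrays limits the precision.

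A platform annotation gave 34958 probe sets 1 symbol, 932 several and 9211 none, and symbols of 34754 were updated through the Entrez identifier against RefSeq names. Where a gene had several probe sets, the one brightest on average stood for it. A value at or below the floor was set to the floor, and such a fold is written as "at least". With 0 residual degrees of freedom no test was run. The members and lists were chosen with earlier results of these data known. Named genes were the 10 keratins, up to 3 genes with the largest absolute difference per list, the 3 nearest genes to each keratin past 2-fold, and neighbours in the gene clusters; Sp1, Tnc, Fgf22, Trp63, Krt35 and Tmsb4x were named after their values were seen. A planned comparison of protein sequences was not run. The counting was run on simulated data with planted changes of 4-fold and 16-fold and an assumed noise of 0.3 log2 units. All planted changes passed the 2-fold limit, as did 1.68% of unchanged genes. Changes of that size pass readily under such noise, so the run checks the code only. The noise of the real arrays is not known. Alternatives changed the floor, the probe set, the offset, the scaling and the limit. The tools were pandas 2.3.3 and statsmodels 0.14.6 under Python 3.11.15, with matplotlib 3.10.9 for figures and numpy 2.4.6.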

Additional observations from a re-analysis of the deposited data

How the results depend on the processing

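There were 10 alternatives chosen at the start and 1 chosen after seeing the data, which left out probe sets with identical values on both arrays. Among the 9 keratins and 36 other named genes recomputed, no difference of 2-fold or more changed sign. Krt75 had a log2 difference of 6.14, against 4.60 with the floor at the 99th percentile, 5.34 with the floor at the median of all probe sets and 4.38 with the offset of 16; Krt17 had 0 with its dimmest probe set. At a limit of 4-fold, 0 keratins were higher in the hairshaft in place of 1. The hair shaft keratin median became 1.22 with the 99th percentile floor, 1.14 with no floor and 0.98 with the offset, and the inner root sheath keratin median 3.49 with the 99th percentile floor, 4.20 with the median floor and 1.19 with the offset.

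With the mean of probe sets, the counts higher in the hairshaft became 0 for the anchoring, regulator, activated keratinocyte and outer root sheath lists. With the dimmest probe set these 4 counts were also 0, and the counts higher in the bulge became 1 for anchoring genes, 3 for regulators, 3 for upper follicle genes and 1 for outer root sheath genes. With plain probe sets, regulators had 2 and outer root sheath genes 0 higher in the hairshaft, and activated keratinocyte genes 2 higher in the bulge. Activated keratinocyte genes had 0 higher in the hairshaft with the offset, anchoring genes 0 with the loess trend removed, and suprabasal and simple epithelial keratins 2 with quantile normalization. Of 388 values of 36 other named genes, 42 moved by over 1.5-fold, 41 of them towards 0. The cause of these changes was not tested. No paired analysis was possible because each structure has 1 array. No result could leave out a replicate. Signal near the floor limits Krt75 in the hairshaft and Krt19 on both arrays.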

Other observations

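Many deposited values were identical on both arrays to the last digit. This held for 17293 of 45101 probe sets (38.3%), with a median of 2.27, and for 1150 of the 13329 genes above the floor (8.63%). They included the Krt19 probe set (2.23), the dimmer Krt17 probe set (3.80) and the brightest probe set of Krt42 (6.73). Such identity also occurred among bright probe sets, up to 13.93 for Tmsb4x, an actin-binding peptide. None of the 9 keratin values used above was identical, and leaving these probe sets out gave 1535 genes higher by 2-fold or more on the bulge array, in place of 1526, and 660 higher in the hairshaft, in place of 655.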
